A study of Mus musculus with 26 samples.

Results

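Interferon-stimulated genes are the genes that cells switch on when interferon, a secreted warning protein, binds its receptor or when viral nucleic acid is sensed. The list held 45 of them, taken by name and chosen with earlier results of these data known. Of the 45, 43 were among the 18198 genes of the table. All 43 reached 10 in 2 or more libraries and so were among the 16038 genes tested, and 38 would also have passed on the MEF, day 0, day 1, iPSC and ESC libraries alone. The other 5 (Dhx58, Ifit3, Mx1, Rsad2 and Ifi27l2a) passed only through the day 3, 5 or 7 libraries. For these 5, higher values there than in the early, iPSC or ESC libraries are not independent of the filter. Mx2 and Gbp6 were not analysed here.

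RNA-seq was made from 26 mouse libraries in 13 groups of 2. MEF are embryonic fibroblasts at passage 2, kept in serum. For the OSK course, early-passage MEFs were infected with retrovirus made in PlatE packaging cells and carrying, by the group's name, Oct4, Sox2 and Klf4, and were sampled at days 0, 1, 3, 5 and 7 of reprogramming. OSK-cJun cells had Jun, an AP-1 subunit, as well, with libraries at days 0, 1, 3 and 7. OSK-shSap30 cells had a short hairpin RNA against Sap30, a Sin3 deacetylase subunit, delivered by lentivirus, and were sampled on day 7. ESC are embryonic stem cells (CBA/CaJ X C57BL/6J, passages 20 to 24) and iPSC are cells grown from picked reprogrammed colonies (passages 5 to 8), both kept in N2B27 with 2 kinase inhibitors and LIF. Every reprogramming group, the OSK controls included, had thus met a virus, the hairpin group 2 kinds of it. The labels give 2 reprogramming media and do not say which culture had which, give no empty vector or control hairpin group among these libraries, and do not say whether the 2 replicates of a group were separate cultures, so the p-values may measure technical spread only.

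The labelled cell types were checked against their markers, as sums of deposited values over 10 fibroblast genes and 10 pluripotency genes. Fibroblast markers summed to 70525 and 74521 in MEF and to 169 and 637 in ESC, and pluripotency markers to 34 and 8 in MEF and to 27651 and 28550 in ESC. The iPSC libraries had pluripotency sums near those of ESC (26081 and 26007) but kept fibroblast sums of 7203 and 13222. The 2 libraries of OSK day 5 stood apart from each other, with fibroblast sums of 30742 and 11703 and pluripotency sums of 3656 and 1828. Values were a normalised score with the same distribution in every library and with no correction for gene length, so levels are compared between libraries and not between genes, and the depth is unknown.

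Type I interferons (alpha and beta) bind the receptor IFNAR and, through the kinases JAK1 and TYK2, lead to a complex with STAT2 and IRF9 that binds a DNA element called ISRE. Interferon gamma binds another receptor, acts through a DNA element called GAS and induces the factor IRF1. Many interferon-stimulated genes carry 1 or both elements close to their start. Foreign nucleic acid, detected by sensors such as RIG-I, is a known trigger of the pathway in fibroblasts, while pluripotent stem cells are known to respond to interferon weakly.

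Promoter windows of RefSeq (GRCm38.p6), from 250 bases before to 50 after a gene's start, were found for 33 of the 45 listed genes. The ISRE core was searched on both strands as GAAA, any 2 bases, then GAAA, and the GAS core as TTC, any 3 bases, then GAA, and matches of either may overlap. An ISRE core lay in the windows of 18 of 33 listed genes (54.5%), against 3.99% of 27025 genes with a window, and a GAS core in 11 of 33 (33.3%) against 9.55%. All 6 guanylate-binding protein and immunity-related GTPase genes with a window (Gbp2, Gbp3, Gbp7, Igtp, Irgm1 and Irgm2) held an ISRE core, as did 2 of 4 OAS genes (Oas1a and Oas3). A match is a description of letters and not a measured binding site.

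The following stretches are shown because these 5 genes carry the contrasts described later. Gbp2, Igtp and Irgm2 were the 3 members of their GTPase class that were lowest with the Sap30 hairpin relative to OSK day 7. Ifit1 and Isg15 were lower in value there too but were not called. Each runs from 130 bases before the start for 150 bases, 5′ to 3′ on the gene's strand in GRCm38.p6, with ISRE and GAS cores in capitals.
Gbp2: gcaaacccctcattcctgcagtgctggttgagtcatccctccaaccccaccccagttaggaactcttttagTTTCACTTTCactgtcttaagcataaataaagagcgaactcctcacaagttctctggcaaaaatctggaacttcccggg
Igtp: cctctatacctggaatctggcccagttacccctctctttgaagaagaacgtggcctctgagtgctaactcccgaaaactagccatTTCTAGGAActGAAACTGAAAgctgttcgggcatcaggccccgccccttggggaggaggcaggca
Irgm2: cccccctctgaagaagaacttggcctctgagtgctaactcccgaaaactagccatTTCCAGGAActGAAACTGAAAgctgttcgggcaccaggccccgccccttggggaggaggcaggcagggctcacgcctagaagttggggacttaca
Ifit1: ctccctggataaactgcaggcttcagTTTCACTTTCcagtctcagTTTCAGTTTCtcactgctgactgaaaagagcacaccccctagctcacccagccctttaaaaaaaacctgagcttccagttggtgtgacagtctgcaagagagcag
Isg15: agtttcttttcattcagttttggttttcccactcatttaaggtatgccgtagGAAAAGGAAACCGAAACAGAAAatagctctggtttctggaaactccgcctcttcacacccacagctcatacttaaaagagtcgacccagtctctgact
They lie at chr3:142620533-142620682 (plus strand), chr11:58199426-58199575 (plus strand), chr11:58214847-58214996 (plus strand), chr19:34640759-34640908 (plus strand) and chr4:156200799-156200948 (minus strand). Igtp and Irgm2 both hold a GAS core followed by an ISRE core, starting 45 and 34 bases before the start of Igtp and 75 and 64 bases before that of Irgm2. Gbp2 holds 1 ISRE core (59 bases before the start) and Ifit1 holds 2 (104 and 85 bases before). Isg15 holds 3 that overlap (78, 72 and 66 bases before), and none of these 3 stretches has a GAS core. In the same GTPase class, the window of Gbp7, not called with the hairpin, holds 2 GAS cores. That of Irgm1, which was called, holds 0. Whether the cores go with the hairpin folds was not tested.

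Between day 0 and day 3 of the OSK course nearly the whole list rose. A gene is called here when its adjusted p from limma is below 0.05 and its log2 fold, on log2(value + 1), is at least 1. On day 3, 41 of 43 members were called higher than on day 0, against 8.55% of all genes tested, and their median log2 fold was 4.97 against 0.00 for all genes. Since the list was chosen with earlier results of these data known, this count is not an independent test. The 41 include Dhx58, Ifit3, Mx1, Rsad2 and Ifi27l2a, which passed the filter only through late libraries. The members not called, Ifit2 and Trim25, passed without those libraries. Counted over the whole OSK course, 32 members had their highest mean on day 3, 7 on day 5 and 4 on day 7. The median of the 43 members on the log2 scale was 4.32 and 4.09 in the day 0 libraries, 4.81 and 5.09 on day 1, 9.60 and 9.37 on day 3, 8.28 and 9.21 on day 5 and 8.79 and 8.52 on day 7. In these bulk libraries, more cells of a kind and more RNA per cell cannot be told apart.

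**Figure D1:**
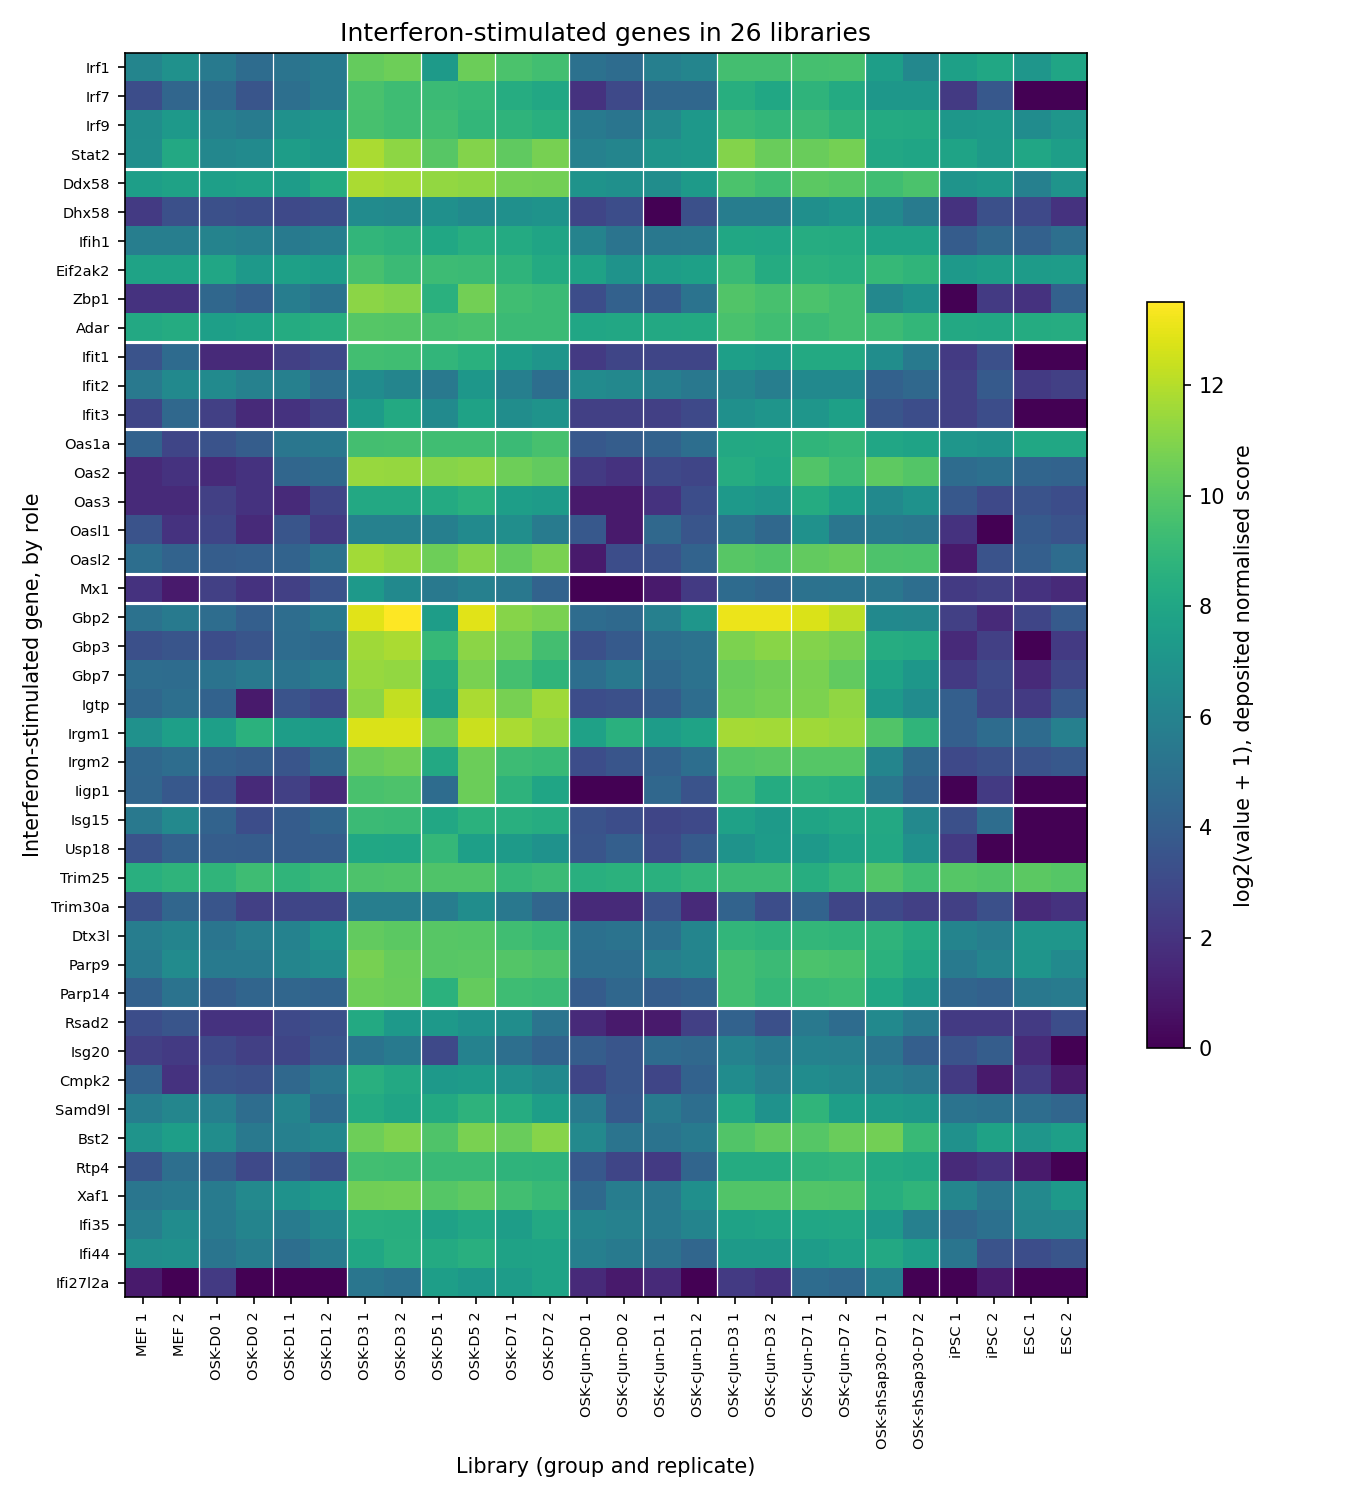
Each row is an interferon-stimulated gene, grouped by role between white lines, each column is 1 of 26 libraries, and colour gives log2(value + 1) of the deposited normalised score. The day 3, 5 and 7 columns of OSK and the day 3 and 7 columns of OSK-cJun are bright for most rows. The guanylate-binding and immunity-related rows are darker in OSK-D5 replicate 1 than in replicate 2. They are also darker in both OSK-shSap30-D7 libraries than in OSK-D7, and iPSC and ESC columns are dark for most rows.

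The first day brought little change. On day 1, 3 of 43 members were called higher than on day 0, against 3.18% of all genes. These were Oas2 (2 and 3 on day 0, 21 and 24 on day 1, log2 fold 2.76, SE 0.24, adjusted p = 4.49e-06), Oas1a (10 and 15, then 38 and 42, 1.63, SE 0.33) and Irf9 (58 and 49, then 115 and 129, 1.18, SE 0.27). The groups did not overlap for any of the 3. With the compared libraries fitted alone 0 members were called and without OSK-D1 replicate 2 only 1, so the day 1 count rests on the spread shared from the other groups. From day 1 to day 3, 40 of 43 were called higher, against 3.55% of all genes.

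The 4 transcription factors of the list all rose by day 3. Irf7, the factor that amplifies type I interferon production, had 25 and 11 on day 0, 30 and 47 on day 1, 801 and 630 on day 3, 586 and 521 on day 5 and 333 and 273 on day 7 (day 3 minus day 0, log2 fold 5.33, SE 0.48, adjusted p = 5.4e-07). Stat2, a subunit of the ISRE-binding complex, went from 76 and 86 to 182 and 143, 3614 and 2409, 1018 and 2038, and 1179 and 1736 on the same days (5.17, SE 0.39, adjusted p = 8.51e-08). Both genes were highest on day 3, and no day 3, 5 or 7 library overlapped with a day 0 or day 1 library. Irf1, a factor of the gamma response, stood at 47 and 26 on day 0 and 1263 and 1500 on day 3 (5.26, SE 0.66), and Irf9, the DNA-contacting subunit, at 58 and 49 and then 757 and 656 (3.70, SE 0.27).

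The OAS enzymes, which make the messenger that activates RNase L, were called in 5 of 5 cases on day 3. Oas2 stood at 2 and 3 on day 0, 21 and 24 on day 1, 2711 and 2616 on day 3, 2123 and 2308 on day 5 and 1456 and 1251 on day 7. Its log2 fold of 9.59 from day 0 to day 3 (SE 0.24, adjusted p = 2.18e-14) was the largest of the list, and the replicates lay close together on every day. Oas1a had 707 and 728 on day 3 and 581 and 768 on day 7, and Oas3 had 284 and 282, then 187 and 169. Oasl2, an OAS-like protein, went from 15 and 16 on day 0 to 3154 and 2619 on day 3 (7.45, SE 0.65), and Oasl1 from 6 and 2 to 61 and 60 (3.75, SE 0.84).

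The guanylate-binding proteins and immunity-related GTPases, which act on the vacuoles of intracellular parasites, were called in 7 of 7 cases on day 3, with a median log2 fold of 7.31. Gbp2 had 27 and 16 on day 0, 27 and 41 on day 1, 7733 and 11676 on day 3, 181 and 7733 on day 5 and 2133 and 1798 on day 7 (day 3 minus day 0, 8.77, SE 1.04, adjusted p = 1.32e-05). Igtp had 18 and 1, 10 and 7, 2310 and 5024, 210 and 3611, and 1701 and 3034 (9.11, SE 1.04, adjusted p = 9.47e-06). Both were low in all 4 early libraries, high in both day 3 and both day 7 libraries, and split on day 5. Gbp3 (8.32), Iigp1 (7.31), Irgm2 (6.43), Gbp7 (6.07) and Irgm1 (4.62) were called too, and Irgm1 started from a higher level of 199 and 394.

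Of the IFIT proteins, which bind foreign RNA ends, Ifit1 and Ifit3 rose and Ifit2 was not called. Ifit1 had 2 and 2 on day 0, 5 and 7 on day 1, 674 and 658 on day 3, 467 and 383 on day 5 and 186 and 133 on day 7 (7.80, SE 0.42, adjusted p = 3.57e-09). Ifit2, whose gene neighbours Ifit1 and Ifit3 on chromosome 19, had 86 and 60 on day 0 and 93 and 71 on day 3 (0.18, SE 0.53, adjusted p = 0.877), so its libraries overlapped. Mx1, an antiviral dynamin-like GTPase, was 5 and 3 on day 0, 159 and 83 on day 3 and 42 and 19 on day 7 (day 3 minus day 0, 4.56, SE 0.55).

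All 6 sensors of nucleic acid were called on day 3, with log2 folds from 1.76 to 6.78. Ddx58, which encodes the RNA sensor RIG-I, had 196 and 210 on day 0 and 3611 and 3154 on day 3 (4.05, SE 0.31). Zbp1, a sensor of Z-form nucleic acid, had 22 and 16, then 2307 and 2032 (6.78, SE 0.75). Adar, which edits double-stranded RNA, had 198 and 223, then 978 and 945 (2.19, SE 0.15), and Eif2ak2, the kinase PKR, had 253 and 157, then 777 and 593 (1.76, SE 0.29). Ifih1 (MDA5) was higher by 2.84 and Dhx58 (LGP2) by 3.19.

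In the class of ISG15, ubiquitin ligases and ADP-ribosyl transferases, 6 of 7 were called. Isg15, a ubiquitin-like modifier, had 19 and 8 on day 0, 14 and 20 on day 1, 602 and 574 on day 3, 278 and 400 on day 5 and 369 and 330 on day 7 (5.46, SE 0.53, adjusted p = 9.84e-07). Usp18, which removes ISG15 and restrains the receptor, had 15 and 14, then 265 and 258 on day 3, and Parp14 had 15 and 20, then 1483 and 1390. Trim25, a ubiquitin ligase that was already at 464 and 635 on day 0, had 850 and 886 on day 3 (0.68, adjusted p = 0.0231) and missed the fold. All 10 other effectors were called, from Isg20 (2.55), an exonuclease, to Rtp4 (5.88), with Rsad2, the radical enzyme viperin, at 3 and 3 and then 295 and 156, and the membrane tether gene Bst2 at 97 and 43 and then 1478 and 1941.

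Igtp and Irgm2, Parp9 and Dtx3l, and Irf9 and Rnf31 overlap in the GRCm38 annotation, and the GBP, IRG, IFIT and OAS genes have close copies. Like Parp9 and Dtx3l, Irf7 and Phrf1, Irf1 and Gm17334, Rtp4 and Masp1, and Adar and Chrnb2 overlap on opposite strands. The submitters' notes name RSEM and Bowtie2 for the processing. How reads were shared between these genes was not checked, so values of single members among them are uncertain.

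**Figure D2:**
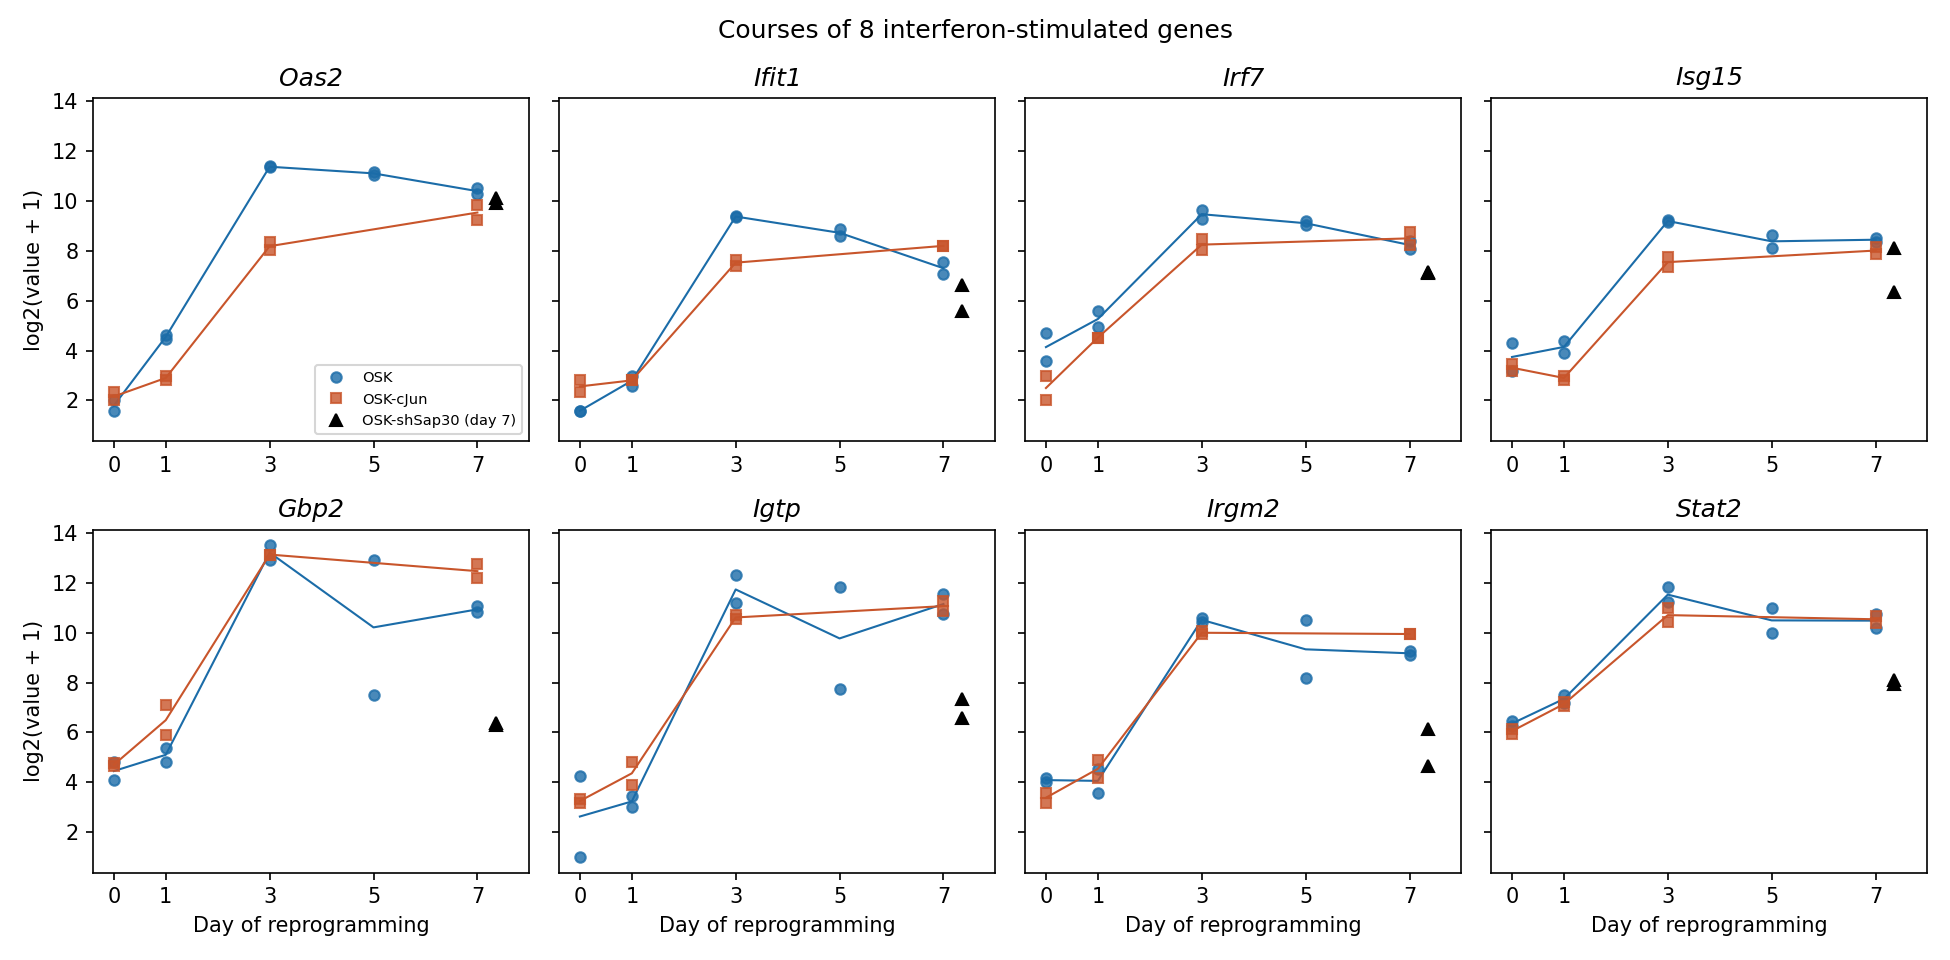
Log2(value + 1) of 8 interferon-stimulated genes against the day of reprogramming, with 1 point per library, lines through group means for OSK (circles) and OSK-cJun (squares), and OSK-shSap30 on day 7 as triangles set slightly to the right. Oas2 and Ifit1 lie lower with Jun on day 3, Gbp2, Igtp and Irgm2 have 1 low OSK library on day 5 and are low with the hairpin, and Oas2 is near its OSK level with the hairpin.

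The later OSK days kept most of the list high. On day 5, 40 of 43 members were called higher than on day 0, against 9.8% of all genes, and on day 7 39 of 43, against 11.3%. The day 5 count was 41 without OSK-D5 replicate 1 and 39 without OSK-D5 replicate 2. Ifit2, Trim25 and Isg20 were not called on either day, and Eif2ak2 (0.90) was not called on day 7. The median member stood at 53.5% of its day 3 mean on day 7. From day 3 to day 7, 4 of 43 members were called lower, against 4.21% of all genes, with a median log2 fold of -0.92: Gbp7 (-2.18, SE 0.58), Ifit1 (-2.07, SE 0.42), Mx1 (-1.98, SE 0.55) and Ddx58 (-1.05, SE 0.31). For these 4 genes both day 3 libraries were above both day 7 libraries. This held for 36 of 43 members, with 2 the other way, so it does not set the 4 apart. The share over all genes was not counted. The count of calls fell to 0 without OSK-D3 replicate 1, without OSK-D7 replicate 2 or with the compared libraries alone, to 2 without OSK-D3 replicate 2, and rose to 8 without the day 5 libraries.

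Ifi27l2a, which encodes a small interferon-induced protein, took a course of its own. It had 4 and 0 on day 0, 39 and 32 on day 3, 191 and 145 on day 5 and 173 and 226 on day 7, so that it was at 562% of its day 3 mean on day 7. With Jun it had 4 and 3 on day 3 and 26 and 23 on day 7. Its SE was wide (1.20), and neither the day 7 minus day 3 fold (2.45, adjusted p = 0.209) nor the day 3 fold with Jun (-3.02, adjusted p = 0.139) passed the test. Dhx58 had 92 and 80 on day 3 and 109 and 120 on day 7, and Oasl1 had 61 and 60, then 101 and 49, and neither was called between these days.

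The 2 libraries of OSK day 5 disagreed on part of the list. All 7 guanylate-binding and immunity-related GTPase genes were higher in replicate 2 than in replicate 1 by more than 1 on the log2 scale, with a median gap of 2.61, while 0 of 5 OAS genes differed by that much (median gap 0.28). Over the list 16 of 43 members (37.2%) differed by more than 1, against 19.9% of all genes. Iigp1 had 26 and 1416, Irgm1 1402 and 5489, Gbp3 525 and 2316, Irf1 163 and 1400, and Zbp1 377 and 1562. In the same 2 libraries Oas2 had 2123 and 2308, Irf7 586 and 521, Ifit1 467 and 383, Rtp4 576 and 560 and Ddx58 2542 and 2356. Usp18 went the other way, with 511 and 200. Fibroblast and pluripotency marker sums were both higher in replicate 1, as given above, and their part in this split was not tested. On day 3, 1 of the 7 GTPase genes differed between replicates by more than 1 (Igtp), and on day 7 again 1.

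**Figure D3:**
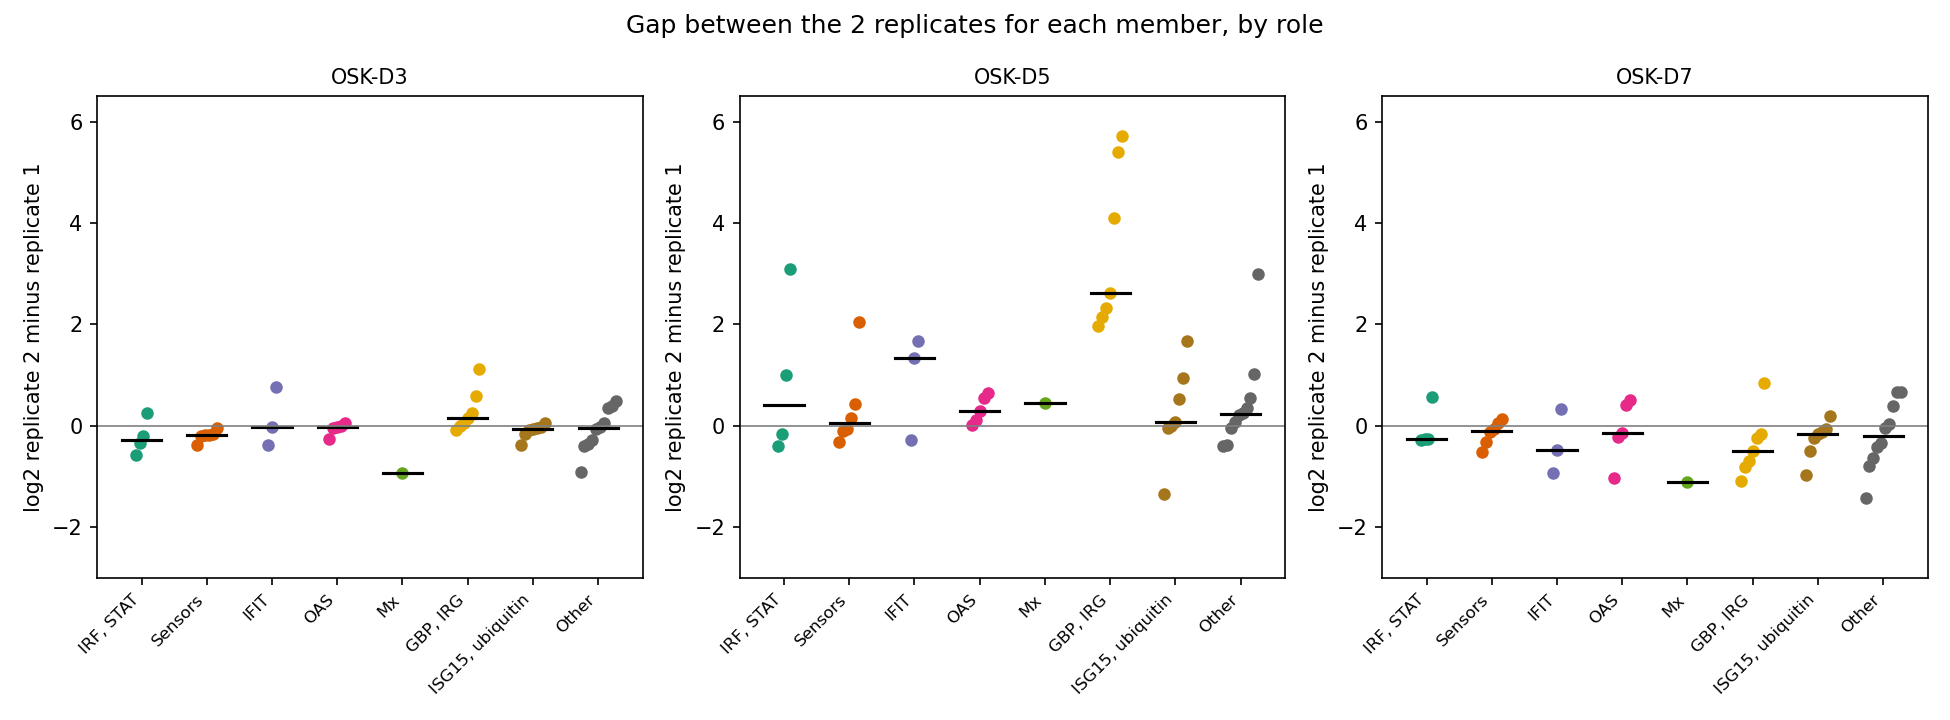
Log2 difference between replicate 2 and replicate 1 for each of 43 members in OSK day 3, day 5 and day 7, with 1 point per gene, grouped by role, and a black bar at the median of the class. On day 5 all 7 GBP and IRG genes lie above 1 and the OAS genes lie close to 0, whereas at days 3 and 7 most points lie within 1 of 0.

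The rest of the pathway was read from lists of named genes. Of the receptors 0 of 6 were called on day 3, where the log2 folds were 0.01 for Ifnar1, -0.04 for Ifnar2, -0.37 for Ifngr1, -0.42 for Ifngr2, 0.16 for Ifnlr1 and -0.64 for Il10rb. Of the kinases, Jak1 was lower on day 3 (1795 and 1610, then 843 and 764, -1.08, SE 0.21), and Jak2 (-0.77) and Tyk2 (0.49) were not called. Among the other factors of that list Stat3 was called higher (1.29) and Irf5 lower (-2.90).

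Of 21 interferon ligands, 3 were in the table and 1, Ifng, was tested, and the others were not analysed here. Ifng, the gamma interferon gene, was listed at 0 in both libraries of MEF, day 0 and day 1 of both courses, OSK-shSap30, iPSC and ESC. It had 12 and 9 at OSK day 3, 0 and 7 on day 5, 5 and 2 on day 7, 12 and 11 at OSK-cJun day 3 and 8 and 14 at OSK-cJun day 7. These are low values, near the minimum of 10 set for testing, which Ifng reached only in the libraries where it was high, so its test against groups at 0 is not given. In the list of sensor adaptors and upstream kinases 2 of 11 were called higher at OSK day 3 (Tlr3, itself a sensor, 2.56, and Myd88, 1.12). Of the feedback inhibitors it was 1 of 10 (Socs3, 2.31). Of 50 further interferon-induced genes it was 35, led by Parp12 (4.16, SE 0.29), Apol9b (5.91, SE 0.50) and Rnf213 (4.06, SE 0.37). Over all genes 8.55% were called higher. Beside that share, 2 of 11 and 1 of 10 are small counts and are not read as a result about those lists. The pathway lists too were chosen with earlier results of these data known, so their counts are not independent tests.

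Markers of other cell types that a culture could hold were read beside these results, and their part in the rise of the list and in the differences between arms was not tested. The summed values of 14 macrophage and blood markers were 949 and 236 in OSK libraries of day 0, 644 and 304 on day 1, 522 and 322 on day 3, 514 and 391 on day 5 and 259 and 260 on day 7. Cx3cr1 was listed at 0 in both libraries of each of OSK days 3, 5 and 7, and Tyrobp and C1qa were at 0 in both libraries of days 5 and 7. Ptprc had 76 and 37 on day 3 and Laptm5 148 and 192.

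Of 9 plasmacytoid dendritic, T, B and NK cell markers 5 were in the table. Their sum was 110 and 116 in ESC and 60 and 30 in iPSC, where the list was low. Within the OSK course the sum was higher on the days when the list was high. It was 2 and 0 in OSK on day 0, 2 and 2 on day 1, 53 and 19 on day 3, 51 and 36 on day 5 and 40 and 26 on day 7, and nearly all of it was Cd3g (53 and 17 on day 3, 51 and 34 on day 5, 40 and 26 on day 7), with Cd3e at 0 in each of these libraries. From day 0 to day 3 the fibroblast sum went from 45444 and 57036 to 26477 and 25111, the pluripotency sum from 50 and 22 to 1209 and 1178, and the sum of 9 endothelial markers from 645 and 724 to 587 and 578. With Jun on day 3 the sums were 1016 and 1003 for blood, of which Cd68 made 688 and 883, 3 and 6 for the plasmacytoid and lymphoid markers, 111 and 54 for pluripotency, 1830 and 1044 for endothelial and 32060 and 31634 for fibroblast markers.

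With added Jun the list rose too, with lower values of most members on day 3 than in OSK. Jun itself was at 7721 and 6929 in OSK-cJun and 536 and 425 in OSK on that day. Within the OSK-cJun course, 5 of 43 members were called higher on day 1 than on day 0 (Irf7, Irf9, Oas3, Iigp1 and Parp9), against 4.38% of all genes. On day 3 it was 39 of 43, against 7.44%, and on day 7 40 of 43, against 8.89%. The day 1 count was 0 with the compared libraries alone, 1 without OSK-cJun-D0 replicate 1 or OSK-cJun-D1 replicate 2 and 3 without OSK-cJun-D0 replicate 2. On day 0 the arms did not differ for any member by the call rule (0 of 43, against 0.0748% of all genes called either way), and on day 1 only Oas2 was called lower (1 of 43, against 0.742%), with 7 and 6 against 21 and 24 (-1.65, SE 0.24, adjusted p = 0.0016). Without OSK-cJun-D1 replicate 2 thon day 1 count was 3.

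On day 3, 9 of 43 members were called lower in OSK-cJun than in OSK, against 3.54% of all genes, and none was called higher. Rsad2 had 18 and 9 with Jun against 295 and 156 (-3.97, SE 0.58, adjusted p = 0.000318). Oas2 had 325 and 261 against 2711 and 2616 (-3.19, SE 0.24, adjusted p = 1.07e-06). Mx1 had 25 and 21 against 159 and 83 (-2.28, SE 0.55, adjusted p = 0.0122). Ddx58 had 833 and 655 against 3611 and 3154 (-2.19, SE 0.31), Cmpk2, the nucleotide kinase gene next to Rsad2, had 94 and 60 against 370 and 289 (-2.11, SE 0.64), and Ifit1 had 200 and 169 against 674 and 658 (-1.85, SE 0.42). Dtx3l (-1.39), Oas1a (-1.32) and Parp9 (-1.24) made up the 9, and for none of the 9 did the libraries of the arms overlap. Both OSK libraries were above both OSK-cJun libraries for 39 of 43 members, with 0 the other way. The lack of overlap thus does not set the 9 apart, and its share over all genes was not counted.

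The GTPase class was not among them: 0 of 7 were called, with a median log2 fold of -0.86 against -0.95 over the list and -0.02 over all genes. Gbp2 had 8993 and 8993 with Jun against 7733 and 11676 (-0.08, SE 1.04), and Igtp had 1480 and 1651 against 2310 and 5024 (-1.12, SE 1.04, adjusted p = 0.636). The SE of Gbp2 and Igtp pools all groups, the split day 5 replicates included, and with it a difference of the size seen for Ifit1 would not be called in either gene. Stat2 (-0.82), Irf7 (-1.22, adjusted p = 0.137) and Isg15 (-1.65, adjusted p = 0.0572) were not called either, although the libraries of the arms did not overlap for any of them. The count of 9 was 3 without OSK-D3 replicate 1 or without OSK-cJun-D3 replicate 2, and 15 with the compared libraries alone.

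Whether the rise from day 0 to day 3 itself differed between the arms was tested as an interaction. It was called lower with Jun for 2 of 43 members, against 0.486% of all genes: Oas2 (-3.56, SE 0.34, adjusted p = 8.51e-05) and Ifit1 (-2.83, SE 0.60, adjusted p = 0.0267). The call for Ifit1 was lost when any 1 of the 8 libraries was left out, and that for Oas2 was not. On day 0 Ifit1 stood at 0.30% of its OSK day 3 mean in OSK and 0.75% in OSK-cJun, and Oas2 at 0.094% and 0.13%. These day 0 values are near 0, where small differences add to the interaction on the log2 scale. For the other members called on day 3, a different rise was not shown.

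On day 7 none of the 43 members was called between OSK-cJun and OSK, against 11.8% of all genes called either way, and the median log2 fold was 0.08. Oas2 had 913 and 606 with Jun against 1456 and 1251 (-0.86, SE 0.24, adjusted p = 0.0194) and missed the fold of 1. Gbp2 had 6942 and 4629 against 2133 and 1798 (1.53, SE 1.04, adjusted p = 0.359), so its libraries did not overlap but it was not called, whereas without the day 5 libraries it was (adjusted p = 0.0188) and the count became 2. Irf7 had 438 and 300 against 333 and 273, Isg15 235 and 283 against 369 and 330, Stat2 1352 and 1633 against 1179 and 1736, and Mx1 33 and 34 against 42 and 19. The interaction on day 7 was called lower for 1 of 43 members, Oas2 (-1.23, SE 0.34, adjusted p = 0.0488), against 1.36% of all genes, and that call was lost without the day 5 libraries or with any of 6 of the 8 single libraries left out. In the same libraries the fibroblast marker sum was 34993 and 34813 with Jun and 11647 and 11003 without, and the list's median log2 value was 8.81 in both libraries with Jun.

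The Sap30 hairpin came with lower values of part of the list. Of the members called, Ddx58, Oas1a and Parp9 were also among the 9 called lower with Jun on day 3, and whether the 2 sets differ was not tested. Sap30, the targeted gene, was at 20 and 41 in the hairpin libraries and at 301 and 378 in OSK on day 7. On day 7, 15 of 43 members were called lower in OSK-shSap30 than in OSK, against 4.92% of all genes, and none was called higher. The median log2 fold of the list was -1.0025, against -0.01 for all genes. Gbp2 had 83 and 78 with the hairpin against 2133 and 1798 (-4.59, SE 1.04, adjusted p = 0.00822). Igtp had 160 and 94 against 1701 and 3034 (-4.20, SE 1.04, adjusted p = 0.0137). Ifi27l2a had 57 and 0 against 173 and 226 (-4.71, SE 1.20, adjusted p = 0.0148), with the hairpin replicates apart.

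In the GTPase class 4 of 7 were called and the median was -3.61. Irgm2 had 69 and 24 against 611 and 543 (-3.79, SE 0.55, adjusted p = 0.000365) and Irgm1 914 and 464 against 3611 and 2542 (-2.22, SE 0.55). Iigp1 (-3.61, adjusted p = 0.0548), Gbp3 (-1.69, adjusted p = 0.084) and Gbp7 (-1.69, adjusted p = 0.0618) were not called, though the libraries did not overlap. Both OSK day 7 libraries were above both hairpin libraries for 34 of 43 members, with 2 the other way. The share over all genes was not counted. The class stood at a median of 3.46% of its day 3 mean in the hairpin libraries, against 39.4% in OSK day 7. Among the factors Irf1 had 188 and 78 against 821 and 682 (-2.62, SE 0.66) and Stat2 276 and 243 against 1179 and 1736 (-2.46, SE 0.39). Ifit3 (-3.43), Zbp1 (-2.69), Trim30a (-2.15), Parp14 (-1.57), Oas1a (-1.48), Parp9 (-1.46), Ifi35 (-1.24) and Ddx58 (-1.15) were the other members called.

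Other members had values near those of OSK with the hairpin. Oas2 had 1129 and 957 against 1456 and 1251 (-0.38, SE 0.24, adjusted p = 0.314), Rsad2 83 and 46 against 99 and 36 (0.05, SE 0.58), Mx1 40 and 29 against 42 and 19 (0.26, SE 0.55), Usp18 271 and 115 against 164 and 116 (0.35, SE 0.60) and Ifi44 285 and 198 against 223 and 227 (0.08, SE 0.42). The OAS class had a median of -0.82 with 1 of 5 called. Irf7 (141 and 139 against 333 and 273, -1.10, adjusted p = 0.137), Isg15 (279 and 81 against 369 and 330, -1.21, adjusted p = 0.133) and Ifit1 (97 and 47 against 186 and 133, -1.21, adjusted p = 0.0635) were lower in value and not called. A p above the threshold does not show that these genes were unaffected. Whether the GTPase class differed from the OAS class was not tested.

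Of the 50 further interferon-induced genes, 16 were called lower and 2 higher with the hairpin, against 4.92% of all genes called lower and 4.93% called higher. The receptors were called in 0 of 6 cases and Ifng was listed at 0 in both hairpin libraries. Blood markers summed to 392 and 1182 with the hairpin and 259 and 260 in OSK day 7, and plasmacytoid and lymphoid markers to 21 and 99 against 40 and 26. Pluripotency markers summed to 848 and 619 against 2064 and 1602, fibroblast markers to 6191 and 7352 against 11647 and 11003 and endothelial markers to 899 and 1222 against 440 and 593, and the part of any of these was not tested. The count of 15 was 0 with the 4 compared libraries fitted alone, 9 without OSK-D7 replicate 1, 4 without OSK-D7 replicate 2 and 6 without OSK-shSap30-D7 replicate 2. In the last 2 of these settings, as with the compared libraries alone, Igtp was no longer called, while the direction held. The single-hairpin design has no control hairpin among these libraries, so the hairpin and the lentivirus that carried it cannot be told apart. The hairpin libraries also have sample numbers and column names set apart from those of all others. Any difference in when or how they were made cannot be told apart from the hairpin either.

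**Figure D4:**
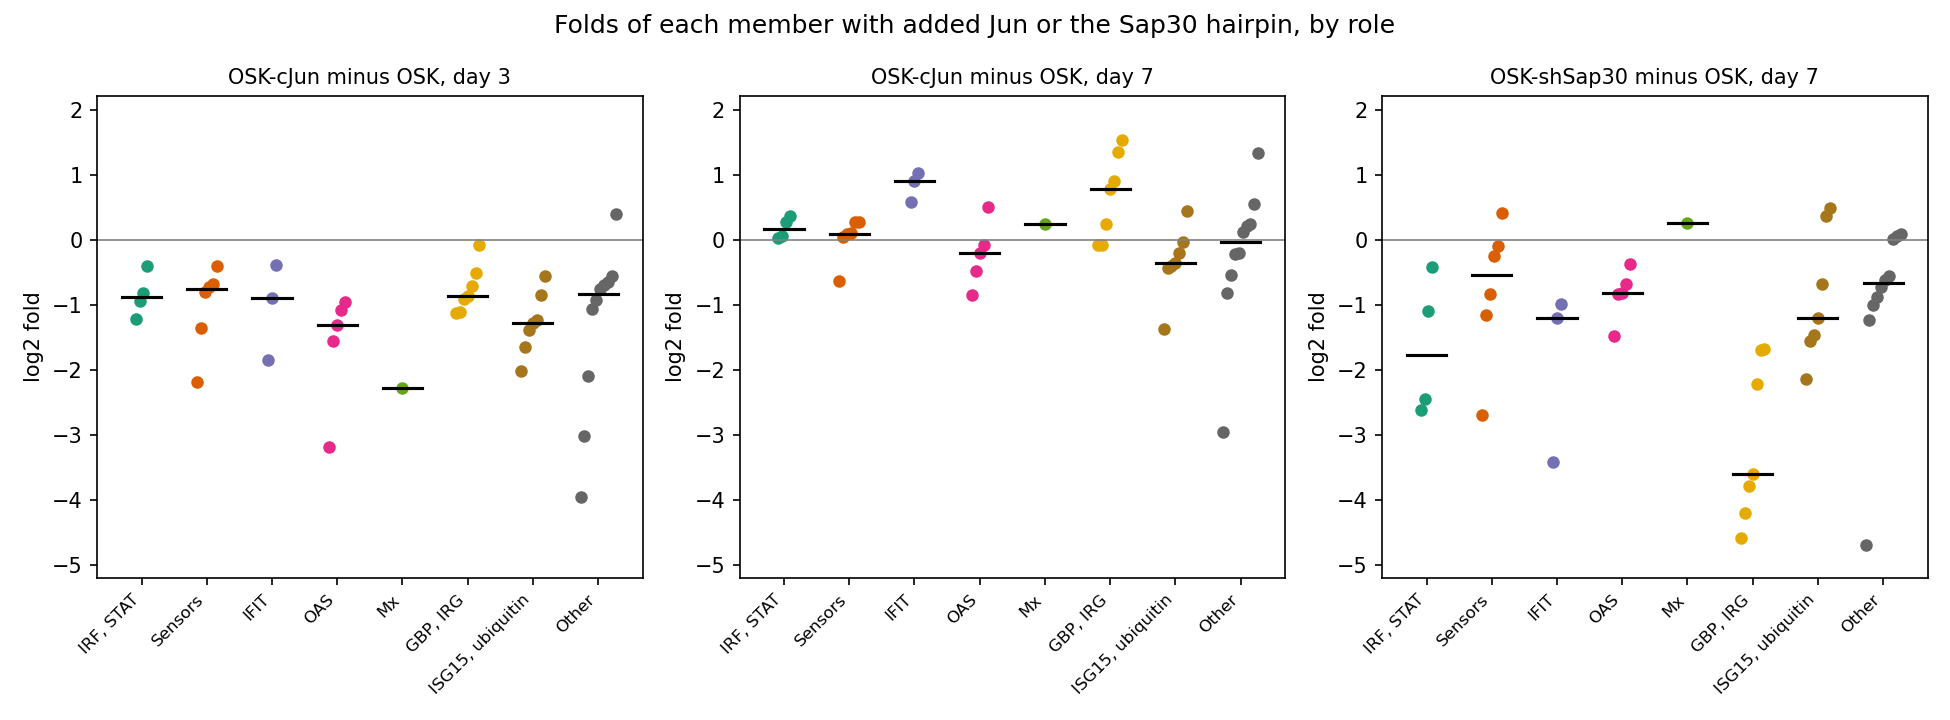
Log2 fold of each of 43 members, with 1 point per gene, grouped by role, for OSK-cJun minus OSK on day 3 and day 7 and for OSK-shSap30 minus OSK on day 7, with a black bar at the median of the class. With Jun on day 3 the lowest points are Rsad2 (-3.97) and Oas2 (-3.19), on day 7 the medians lie within 1 of 0, and with the hairpin the GBP and IRG class has the lowest median (-3.61).

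Outside the reprogramming courses the list was low. OSK day 0 was lower than MEF for 3 of 43 members, against 2.06% of all genes: Ifit1 (2 and 2 against 10 and 25), Isg15 (19 and 8 against 43 and 81) and Irf9 (58 and 49 against 97 and 158). That count was 6 without MEF replicate 1, 1 without MEF replicate 2 or OSK-D0 replicate 2 and 0 with the compared libraries alone, and MEF replicate 2 had a blood marker sum of 2172 against 306 in replicate 1. In iPSC, 40 of 43 members were called lower than at OSK day 7, against 15.7% of all genes. The exceptions were Irf1, Trim25 and Isg20, and the median member stood at 3.36% of its OSK day 3 mean in iPSC, 2.75% in ESC and 4.44% in MEF.

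Relative to MEF, ESC had 6 of 43 members called higher, against 22.4% of all genes, and 15 called lower, against 20.6%. Of the 5 OAS genes 3 were called higher: Oas1a had 260 and 263 against 18 and 6 (4.51, SE 0.33), Oas2 20 and 19 against 2 and 3 (2.56, SE 0.24) and Oas3 10 and 8 against 2 and 2 (1.73, SE 0.44). Oasl1 (13 and 10 against 10 and 3) and Oasl2 (16 and 26 against 29 and 19) were not called. Trim25, Dtx3l and Xaf1 were the others. Irf7, Isg15, Ifit1, Ifit3, Usp18 and Iigp1 were listed at 0 in both ESC libraries. Of the receptors, 5 of 6 were called lower in ESC than in MEF, among them Ifnar1 (184 and 193 against 538 and 436, -1.36, SE 0.14) and Ifnar2 (24 and 41 against 230 and 333, -3.10, SE 0.31), and Ifnlr1, the receptor for interferon lambda, was higher (47 and 51 against 1 and 0).

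Relative to MEF, iPSC had 4 members called higher, against 20.2% of all genes, and 13 called lower, against 19.7%. The 4 were Oas1a (138 and 124, 3.51, SE 0.33), Oas2 (26 and 31, 3.08, SE 0.24), Oas3 (12 and 7, 1.77, SE 0.44) and Trim25 (984 and 915, 1.24, SE 0.21). Between iPSC and ESC, 5 members were called higher in iPSC, against 4.57% of all genes, and 2 lower, against 1.65%. The 5 were low in iPSC too, with 9 and 27 for Isg15, 4 and 12 for Irf7, 4 and 9 for Ifit1, 5 and 8 for Ifit3 and 10 and 15 for Isg20, and all but Isg20 (2 and 0) were listed at 0 in both ESC libraries. The 2 lower were Dtx3l (67 and 54 against 137 and 137) and Ifi35 (23 and 31 against 72 and 74). The iPSC libraries with these traces also kept the fibroblast marker sums given above, whose part was not tested, and with the compared libraries alone 0 of these 7 were called.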

How the data were processed

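Per the labels' protocols, RNA was extracted with TRIzol, libraries came from the TruSeq RNA kit and the sequencer was a NextSeq 500. The submitters' processing notes name the tools bcl2fastq, RSEM and Bowtie2 and the build mm10, without versions. The authors deposited 1 table of 18198 genes in a normalised score: whole numbers whose sorted values agree between libraries to within 2 at every rank, with totals of 4619641 to 4624161 and a highest value of 21544. The step that forced this is not given in the sources used here. It hides depth and any overall shift between groups. Of the genes, 18039 were matched to a symbol through GRCm38 tables, leaving 159, and unused sample columns numbered 0.

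The test ran on log2(value + 1) of genes that reached 10 in 2 or more libraries. A model giving each of the 13 groups its own mean was fitted over the 26 libraries in limma 3.58.1 (R 4.3.3), with trended and robust variances. Adjusted p-values are Benjamini-Hochberg over the 16038 genes of each comparison. The fit was tested on simulated data. The design allowed for counts or a score, and the test for a score was used. The members and lists were chosen with earlier results of these data known. Every member could be named, the text led with Oas2, Ifit1, Isg15, Irf7, Stat2, Mx1, Gbp2, Igtp and the 3 largest called changes each way, and pathway genes were receptors, kinases and the 3 smallest adjusted p at OSK day 3 in each list, and Irgm2, Zbp1 and others named for their role or course were chosen after their values were seen. Some genes of these lists are not reported here. Figures were drawn with matplotlib.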

Additional observations from a re-analysis of the deposited data

Results flagged for a closer look

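The change from day 0 to day 3 or 7 differed between the OSK-cJun and OSK courses, by a test of the difference itself, in 3 cases. For Oas2 the rise to day 3 was smaller with Jun by a log2 difference of -3.56 (SE 0.34, adjusted p = 8.51e-05) and the rise to day 7 by -1.23 (SE 0.34, adjusted p = 0.0488). For Ifit1 the rise to day 3 was smaller by -2.83 (SE 0.60, adjusted p = 0.0267). The day 0 values of Oas2 and Ifit1 were near 0 in both courses, so small differences there add to these log2 differences. The Ifit1 call and the Oas2 call at day 7 were lost when single libraries were left out, and the Oas2 call at day 3 was not.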

How the results depend on the processing

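Over the alternatives, 243 values of the member counts were within 1.5 times the count given and 58 were not. For single members, 417 kept direction and side of the threshold, 33 lost the call, 9 gained it and 8 turned direction. With the compared libraries fitted alone, which leaves few samples to estimate the spread, the counts became 0 for OSK day 0 against MEF, OSK day 1 against day 0, OSK day 7 against day 3, OSK-cJun day 1 against day 0, OSK-cJun against OSK at day 1, OSK-shSap30 against OSK, iPSC against ESC and the day 7 interaction, 10 for iPSC against MEF, 15 for OSK-cJun against OSK at day 3 and 1 at day 7. With a pseudocount of 10 they became 12 for OSK day 7 against day 3, 16 for OSK-cJun against OSK at day 3, 1 at day 7 and 0 at day 1, 2 for OSK-cJun day 1 against day 0, 4 for iPSC against ESC, 11 for iPSC against MEF and 4 for the day 3 interaction. A pseudocount of 0.1 gave 1 for OSK-cJun against OSK at day 0, no filter gave 0 for the day 7 interaction, and no minimum fold gave 7 for OSK day 7 against day 3 and 1 for OSK-cJun against OSK at day 7. Leaving out both OSK day 5 libraries, an alternative chosen after seeing the data, gave 5 for OSK day 0 against MEF, 8 for OSK day 7 against day 3, 2 for OSK-cJun against OSK at day 7 and 0 for the day 7 interaction. Leaving out 1 library at a time, the counts ran from 1 to 6 for OSK day 0 against MEF, 1 to 4 for OSK day 1 against day 0, 0 to 6 for OSK day 7 against day 3, 1 to 5 for OSK-cJun day 1 against day 0, 1 to 3, 3 to 6 and 0 to 1 for OSK-cJun against OSK at days 1, 3 and 7, 4 to 14 for OSK-shSap30 against OSK, 1 to 1 for the day 3 interaction and 0 to 1 for the day 7 interaction; the lone sample of a group was then assumed to vary like the others. Differences that were not called turned direction when 1 library was left out: Gbp2 with Jun at day 3 ran from -0.38 to 0.22, with Jun at day 7 Igtp ran from -0.50 to 0.33 (0.12 in another setting), Irf7 from -0.0072 to 0.54, Mx1 from -0.32 to 0.79 and Stat2 from -0.22 to 0.33 (-0.08 in another), and with the hairpin Mx1 ran from -0.29 to 0.81. The cause of these shifts was not tested. With the replicate number as a replicate block, 10 members were called for OSK-cJun against OSK at day 3 and 15 for OSK-shSap30 against OSK, and no count moved by over 1.5 times. The labels share only a number between groups, and the correlation of same-numbered deviations ran from -0.0699 to 0.3307 over 19 comparisons, above 0.1 in 12. These 12 were the comparisons within and between the OSK and OSK-cJun courses without OSK day 5 (0.1931 to 0.3307). Those with OSK day 5, OSK-shSap30, MEF, ESC or iPSC ran from -0.0699 to 0.0953. The main fit had no replicate block.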
